A study of Mus musculus with 11 samples.

Results

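The fast fibre thin and thick filament genes are 10 genes, chosen by symbol and matched to the Ensembl identifiers of a muscle count table that holds 53465 genes. All 10 were found, and all 10 passed the filter on low counts, among 14117 genes that did. RNA was sequenced from quadriceps, a large thigh muscle, of C57L/6JRj mice whose treatment began at 18 months of age and went on for 10 weeks. The Myriocin group had 6 libraries and the DMSO group had 5. Myriocin is a fungal inhibitor of serine palmitoyltransferase, the enzyme that opens sphingolipid synthesis, and DMSO is the solvent given alone. All mice were aged, so no library shows young muscle. The sources used here do not say that each library is 1 mouse, and the p-values therefore measure the spread between these libraries. The comparison asks whether transcripts of the fast contractile filaments differed after the treatment.

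In a muscle sarcomere, thick filaments of myosin pull on thin filaments of actin. Each myosin head carries an essential and a regulatory light chain, and myosin-binding protein C sits along the thick filament. On the thin filament, tropomyosin covers the sites that myosin binds, and troponin, made of the subunits C, I and T, moves tropomyosin aside when calcium rises. Fast and slow fibres use different genes for most of these parts, and the mouse quadriceps is built largely of fast fibres. In whole muscle, fewer cells of a type and less RNA per cell cannot be told apart.

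The 10 genes, with coordinates in GRCm38 from the GENCODE M21 annotation, fall into 3 roles. The myosin side holds Myl1, the fast essential light chain (ENSMUSG00000061816, chromosome 1, 66924295 to 66945404, minus strand), and Mylpf, the fast regulatory light chain (ENSMUSG00000030672, chromosome 7, 127208890 to 127214298, plus strand). It also holds Mylk2, the skeletal muscle kinase that phosphorylates the regulatory light chain (ENSMUSG00000027470, chromosome 2, 152911352 to 152923068, plus strand). Thick filaments further carry Mybpc2, fast myosin-binding protein C (ENSMUSG00000038670, chromosome 7, 44501699 to 44524656, minus strand), and Mybpc1, the form named after slow muscle (ENSMUSG00000020061, chromosome 10, 88518279 to 88605152, minus strand). Mybpc1 is known to be expressed in fast fibres as well, so the word fast does not describe it alone. The thin filament side holds the fast troponins Tnni2 (ENSMUSG00000031097, chromosome 7, 142441808 to 142444410, plus strand), Tnnt3 (ENSMUSG00000061723, chromosome 7, 142498836 to 142516009, plus strand) and Tnnc2 (ENSMUSG00000017300, chromosome 2, 164777161 to 164779967, minus strand). Tnni2 encodes the inhibitory subunit, Tnnt3 the subunit that binds tropomyosin and Tnnc2 the calcium sensor. Tnni2 and Tnnt3 are neighbours, with 54.4 kb between the end of the first and the start of the second. The tropomyosins are Tpm1 (ENSMUSG00000032366, chromosome 9, 67022590 to 67049406, minus strand), the alpha form, which the heart also uses, and Tpm2 (ENSMUSG00000028464, chromosome 4, 43514711 to 43523765, minus strand), the beta form of fast and slow fibres.

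Depth differed little between libraries, which held 22241131 to 23163721 reads counted in genes. At that depth 3 counts, taken as the floor, are 0.130 to 0.135 CPM, which are counts brought to the same library total, and such floors cover counting error only. Markers of skeletal muscle (Acta1, Ckm, Des, Mb, Myh4 and Casq1) summed to 125637 to 148504 CPM in Myriocin libraries and 107397 to 134509 CPM in DMSO libraries. Of the 6 cardiac markers Myl7 was at 0 in every library, and the 6 summed to 6.69 to 16.9 CPM in Myriocin libraries and 8.27 to 21.7 CPM in DMSO libraries. Some libraries stood apart in transcripts of other tissues. Liver markers (Alb, Apoa1, Ttr, Serpina1c and Fgb) summed to 113 CPM in Myriocin replicate 4, 109 CPM in DMSO replicate 4 and 91.6 CPM in DMSO replicate 5, against 4.91 to 26.2 CPM in the others. DMSO replicate 2 held 1469 CPM of the 4 adipocyte markers, against 254 to 636 CPM elsewhere, and 396 CPM of the 4 neutrophil markers, against 0.353 to 56.2 CPM elsewhere.

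Promoter windows were available from RefSeq (GRCm38.p6) for 7 of the 10 genes, and not for Tnni2, Tnnt3 and Mylk2. Each window is the 250 bases before the RefSeq start, read 5′ to 3′ on the gene's strand. The Mylpf and Mybpc2 windows are shown because they hold no annotated exon base and because the co-variation described further on turns on these 2 genes, Mylpf with Tpm1 and Mybpc2 with Mybpc1. Capitals mark matches to 4 motifs searched on both strands. These are the E-box CANNTG, which MyoD and its relatives bind, the MEF2-type element, which is CTA, then 4 bases of any kind, then TAG, the MCAT element CATTCC of the TEAD factors and the TATA element TATAAA. The Mylpf window, on the plus strand at chr7:127211358-127211607, lies inside the annotated gene, between exons of longer transcripts, and the Mybpc2 window is on the minus strand at chr7:44524670-44524919.
Mylpf: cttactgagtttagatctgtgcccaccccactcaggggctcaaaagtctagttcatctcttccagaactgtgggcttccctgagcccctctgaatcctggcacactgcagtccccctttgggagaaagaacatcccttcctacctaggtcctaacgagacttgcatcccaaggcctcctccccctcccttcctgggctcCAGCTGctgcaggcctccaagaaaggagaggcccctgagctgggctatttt
Mybpc2: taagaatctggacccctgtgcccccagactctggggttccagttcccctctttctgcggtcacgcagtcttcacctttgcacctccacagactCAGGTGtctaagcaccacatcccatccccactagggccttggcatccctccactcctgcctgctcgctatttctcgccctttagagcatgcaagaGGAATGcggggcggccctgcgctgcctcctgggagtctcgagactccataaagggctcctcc

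An E-box stood in all 7 windows, and in 66.2% of the 32536 RefSeq promoter windows of the same length. In Mylpf its first base lay 51 bases before the start, and in Mybpc2 157 bases before it. MCAT matches were in Myl1, Tpm1 and Mybpc2, at 80, 56 and 62 bases before the start, and in 12.6% of all windows. TATAAA was found in the Myl1 window, 95 bases before the start, and in 12.3% of all windows. The MEF2-type element was in 0 of the 7 windows and in 3.22% of all windows. The matches in the 7 windows did not overlap each other. The windows of Myl1, Tnnc2, Tpm1, Tpm2 and Mybpc1 hold 103 to 193 annotated exon bases each. That of Myl1 lies inside the annotated gene, as that of Mylpf does, and distances are to the RefSeq start. A match is a description of these letters and not a measured binding site.

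Fast filament transcripts were among the most abundant in the muscle. Together the 10 genes took 7.98 ± 0.562% of gene reads in Myriocin libraries (SD, n = 6) and 7.42 ± 0.788% in DMSO libraries (SD, n = 5). By mean count over the 11 libraries Tnnt3 ranked 5 among all genes, Tpm1 8, Myl1 15, Mybpc2 18, Tnni2 20, Mylpf 21 and Tpm2 22. Mybpc1 ranked 64 and Mylk2 65, whereas Tnnc2 ranked 12401.

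Divided by exon length, Tnnt3 was highest, with 13557 ± 2280 CPM per kb of annotated exon (SD, n = 11 libraries). Mylpf followed at 6512 ± 1071, Tnni2 at 5043 ± 803 and Myl1 at 4267 ± 604 CPM per kb, and in this trio neighbours overlapped within their SDs. Tpm1 (2308 ± 241), Tpm2 (2287 ± 366) and Mybpc2 (2267 ± 204 CPM per kb) were level with each other by this measure. It divides by the union of all annotated exons, 6485 bases for Tpm1, 2909 for Tpm2 and 3611 for Mybpc2. Before that division they averaged 14967, 6652 and 8185 CPM over the 11 libraries. Which exons the muscle transcripts hold was not tested, so the order per kb holds for these lengths only. Mylk2, a regulatory enzyme rather than a filament part, stood at 473 ± 38.1 CPM per kb and Mybpc1 at 311 ± 43.0 CPM per kb. The steps below Tnnt3, below Myl1, below Mybpc2 and below Mylk2 were larger than the SDs on either side of them.

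The slow sister genes were far lower per length and far more variable. The slow light chain Myl3 averaged 23.9 CPM per kb over the 11 libraries, Myl2 16.01, the slow troponins Tnnc1, Tnnt1 and Tnni1 15.9, 13.5 and 4.44, and the slow tropomyosin Tpm3 8.23 CPM per kb. Between its highest and lowest library Myl3 differed 266-fold and Tpm3 4.23-fold. The value for Myl3 rests on Myriocin replicate 3, with 10 counts (0.436 CPM), where the next lowest library, DMSO replicate 4, had 4.85 CPM. For the members other than Tnnc2 the ratio of highest to lowest library ran from 1.30 in Mybpc2 to 1.75 in Mylpf. Tnnc2 aside, the slow gene was thus the smaller part of its pair, and Tnni1 made up 0.0333% to 0.483% of Tnni2 plus Tnni1 counts in Myriocin libraries and 0.0254% to 0.549% in DMSO libraries. Against Tnnc2, whose low counts are described further on, slow Tnnc1 was the larger part in every library, with 66.7% to 98.0% of the pair in Myriocin libraries and 52.3% to 99.0% in DMSO libraries.

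The members also differed in how steady they were. Over the 11 libraries the coefficient of variation of CPM was lowest in Mylk2 (8.06%) and Mybpc2 (8.99%), and highest, Tnnc2 aside, in Tnnt3 (16.8%) and Mylpf (16.5%). The 88 genes above 1000 CPM had a median of 11.4%, and 6 of the 9 members among them lay above it. Spread was smaller with Myriocin for several members, a description without a test. For Mybpc2 it was 3.30% in Myriocin libraries and 11.4% in DMSO libraries, and for Myl1 6.29% in Myriocin libraries and 17.5% in DMSO libraries. For Tnnt3 it was 17.5% in Myriocin libraries and 14.9% in DMSO libraries.

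**Figure D1:**
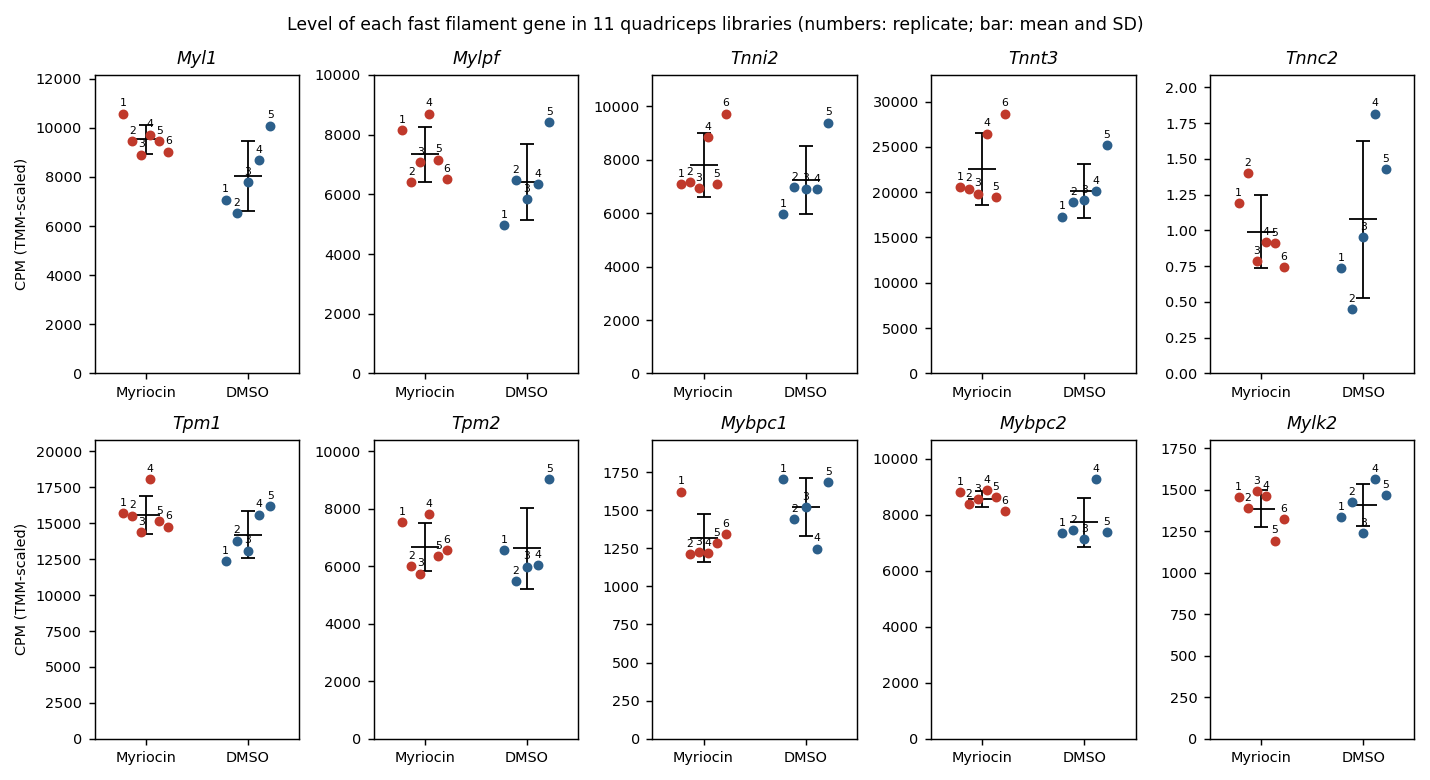
Level of each of the 10 genes in CPM after scaling by the trimmed mean of M-values (TMM), 1 point per library with its replicate number, 6 Myriocin libraries left of 5 DMSO libraries, bars showing mean and SD. All groups overlap, and Tnnc2, on its own axis, stays below 2 CPM in every library while Tnnt3 lies between 17294 and 28675 CPM.

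The myosin light chain genes had higher means with Myriocin, but neither passed the test over all genes. Myl1 had 8905, 9452 and 10581 CPM (lowest, median and highest) in Myriocin libraries, against 7075, 6532, 7800, 8697 and 10092 CPM in DMSO replicates 1 to 5. Every Myriocin library lay above the DMSO mean, and 4 of 5 DMSO libraries lay below every Myriocin library, the exception being DMSO replicate 5. Myl1 averaged 9524 ± 599 CPM with Myriocin and 8039 ± 1406 CPM with DMSO, a log2 fold change (Myriocin minus DMSO) of 0.24 with a standard error of 0.11 and a 95% interval from 0.02 to 0.47. Its unadjusted p was 0.0356 and its adjusted p 0.936 in edgeR's quasi-likelihood test, with Benjamini-Hochberg adjustment over 14117 genes. The log2 fold change was 0.41 without the 3 libraries with liver transcripts (adjusted p 0.659 with edgeR), and 0.18 without DMSO replicate 2, the lowest library for Myl1.

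Mylpf, the partner light chain on the same myosin head, had 6412, 7126 and 8706 CPM (lowest, median and highest) in Myriocin libraries, against 4968, 6475, 5839.5, 6342 and 8417 CPM in DMSO replicates 1 to 5. Again every Myriocin library was above the DMSO mean, and DMSO replicate 5 was above 5 of the 6 Myriocin libraries. The log2 fold change was 0.20 (95% interval from -0.07 to 0.46, edgeR adjusted p 0.936). Leaving out DMSO replicate 1 gave 0.12, leaving out DMSO replicate 5 gave 0.31, and the 8 libraries low in liver transcripts gave 0.30. Mylk2 averaged 1385 ± 112 CPM with Myriocin and 1407 ± 125 CPM with DMSO, and its log2 fold change of -0.02 had an interval from -0.20 to 0.15. Of the Myriocin libraries 3 lay above and 3 below the DMSO mean of Mylk2.

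The sister genes of myosin-binding protein C differed between the groups in opposite directions, and neither passed the test. Mybpc2 had 8119, 8606 and 8876 CPM (lowest, median and highest) in Myriocin libraries, against 7358, 7465, 7142, 9284 and 7385 CPM in DMSO replicates 1 to 5. The 6 Myriocin libraries were close together and above 4 of the 5 DMSO libraries, while DMSO replicate 4 was the highest of all. Mybpc1 had 1210.4, 1252 and 1621 CPM in Myriocin libraries, against 1705, 1443, 1522, 1248 and 1683 CPM in DMSO replicates 1 to 5. For Mybpc1 5 of 6 Myriocin libraries were below the DMSO mean, and Myriocin replicate 1 lay among the high DMSO libraries. Log2 fold changes were 0.15 for Mybpc2 (95% interval from -0.02 to 0.32) and -0.21 for Mybpc1 (from -0.42 to 0.00), both with an edgeR adjusted p of 0.936.

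The ratio of the 2 genes within a library does not depend on scaling. Mybpc2 counts were 5.44 to 7.29 times those of Mybpc1 in Myriocin libraries (median 6.83) and 4.31 to 7.44 times in DMSO libraries (median 4.69). The mean log2 ratio was 2.71 ± 0.160 with Myriocin (SD, n = 6) and 2.35 ± 0.323 with DMSO (SD, n = 5), a difference of 0.36. All 6 Myriocin libraries were above the DMSO mean and above 4 of 5 DMSO libraries, but DMSO replicate 4 had the highest ratio. The 2-sided exact permutation p was 0.0476, where groups this small allow no p below 0.00216, and adjusted over the 11 ratios computed it was 0.5. The difference did not pass the threshold of 0.05. It was 0.50 without DMSO replicate 4 (exact permutation p 0.00476, adjusted 0.0524). Without the 3 libraries with liver transcripts, of which DMSO replicate 4 is one, it was 0.44 (exact permutation p 0.0179, adjusted 0.196). DMSO replicate 4 is the only DMSO library that overlaps the Myriocin ratios, so leaving it out separates the groups completely. Both of these p-values are then the smallest that so few libraries allow, and neither counts as support for a difference. In the GENCODE annotation 5.57% of Mybpc1 and 5.32% of Mybpc2 exon bases are shared with an antisense gene, and reads there cannot be assigned without a known strand setting.

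The troponin subunits I and T varied together from library to library, and their groups overlapped. Tnnt3 had 19492, 20471 and 28675 CPM (lowest, median and highest) in Myriocin libraries, against 17294, 18931, 19111, 20139 and 25172 CPM in DMSO replicates 1 to 5. Tnni2 had 6933, 7129 and 9736 CPM in Myriocin libraries, against 5962, 6994, 6924, 6906 and 9393 CPM in DMSO replicates 1 to 5. For both genes the high libraries were Myriocin replicates 4 and 6 and DMSO replicate 5, and the low one was DMSO replicate 1. Log2 fold changes were 0.17 for Tnnt3 (95% interval from -0.11 to 0.44) and 0.11 for Tnni2 (from -0.16 to 0.38), with edgeR adjusted p of 0.936 and 0.946. Leaving out 1 library gave 0.085 (Myriocin replicate 6) to 0.26 (DMSO replicate 5) for Tnnt3, and 0.037 to 0.22 for Tnni2 with the same libraries left out. Without the 3 libraries with liver transcripts the values were 0.24 for Tnnt3 and 0.20 for Tnni2. The Tnnt3 to Tnni2 count ratio stayed between 2.74 and 2.99 in Myriocin libraries and between 2.68 and 2.92 in DMSO libraries (exact permutation p 0.156, adjusted over 11 ratios 0.571).

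Tropomyosin values overlapped as well. Tpm1 had 14378, 15331 and 18094 CPM (lowest, median and highest) in Myriocin libraries, against 12380.2, 13789, 13093, 15610.3 and 16169 CPM in DMSO replicates 1 to 5. All 6 Myriocin libraries were above the DMSO mean, and 3 of 5 DMSO libraries were below every Myriocin library. The log2 fold change of Tpm1 was 0.13 (95% interval from -0.06 to 0.33, edgeR adjusted p 0.936), and 0.21 without the 3 libraries with liver transcripts. Tpm2 averaged 6672 ± 831 CPM with Myriocin and 6627 ± 1404 CPM with DMSO, and its log2 fold change of 0.01 (interval from -0.26 to 0.28) was negative, at -0.023, under scaling by library totals alone. DMSO replicate 5 was the highest library for Tpm2, at 9046 CPM.

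Tnnc2 was counted at about 1 CPM in every library, although its partners Tnni2 and Tnnt3 were among the 20 most counted genes. Its counts were 27, 32, 18, 20, 21 and 17 in Myriocin replicates 1 to 6, against 17, 11, 22, 42 and 31 in DMSO replicates 1 to 5. Per kb of exon it had 1.29 ± 0.490 CPM over the 11 libraries, below its slow sister Tnnc1 and each of the other slow sister genes of the list. In the GENCODE annotation 592 of the 800 exon bases of Tnnc2, or 74%, lie within an exon of Ube2c, a ubiquitin-conjugating enzyme gene on the opposite strand, and 208 bases are not shared. The last Ube2c exon, 1633 bases long, covers 4 of the 7 Tnnc2 exon blocks whole and most of another. Ube2c itself averaged 3.15 ± 0.837 CPM with Myriocin and 3.44 ± 0.861 CPM with DMSO.

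The files count some of a library's reads as ambiguous between genes, with no record of which genes they fell in. The share was highest in Myriocin replicate 4 (7.73%) and DMSO replicate 5 (7.48%), and 6.46% to 7.10% in the other 9 libraries. Whether reads of Tnnc2 are among them was not tested. The level of Tnnc2 therefore cannot be read from these counts as that of its transcript, and its log2 fold change of -0.11 had the widest interval of the 10, from -0.77 to 0.55. Of the other members 7 share no exon base with another annotated gene.

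**Figure D2:**
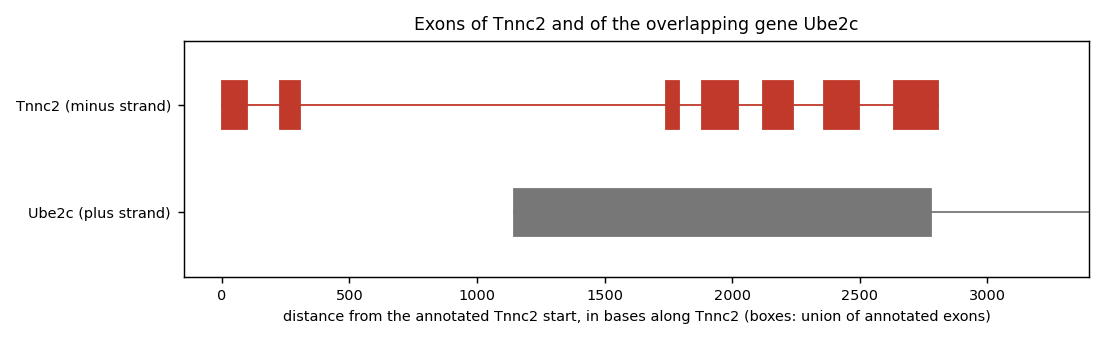
Exons of Tnnc2 and the nearest exon of Ube2c on the opposite strand, drawn to scale, with the distance from the annotated Tnnc2 start in bases on the horizontal axis and boxes for the union of annotated exons. The Ube2c exon of 1633 bases lies over 592 of the 800 Tnnc2 exon bases.

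Over the whole list no gene passed the test, and the groups overlapped for each of the 10 genes. The edgeR test called 0 of 14117 genes (0.0%) in either direction after adjustment, its lowest adjusted p being 0.513, limma-voom called 0, and DESeq2 called 6, none of them a member. Without adjustment, 1 member, Myl1, was higher with Myriocin at a p under 0.05, and 0 were lower. The same held for 2.33% of all genes in the higher and 2.34% in the lower direction, 4.68% together, which is 660 genes with edgeR, 660 with limma-voom and 659 with DESeq2. Groups without overlap were found for 0 members and for 0.361% of all genes, 0.198% higher and 0.163% lower with Myriocin. Every Myriocin library was above the DMSO mean for 4 members (Myl1, Mylpf, Tpm1 and Mybpc2) and for 3.56% of all genes, and below it for 0 members and 6.53% of all genes. Log2 fold changes were positive for 7 members and negative for 3, with a median of 0.12, while 46.3% of all genes were positive and 53.7% negative, with a median of -0.01. When the 3 libraries with liver transcripts were left out, the median of the members was 0.21. Myl1, Mylpf, Tpm1 and Mybpc2 were then higher with Myriocin at an unadjusted p under 0.05. The same held for 4.05% of all 14346 genes tested there, while 3.07% were lower. By the adjusted p 0 members were called in that fit. Its DMSO group was replicates 1 to 3 alone. DMSO replicates 4 and 5, left out, were the highest DMSO libraries for Myl1 and Tpm1. Replicate 5 was the highest for Mylpf and replicate 4 for Mybpc2. Myriocin replicate 4, also left out, was the highest Myriocin library for Mylpf, Tpm1 and Mybpc2. The rise in members under 0.05 cannot be told apart from the choice of these libraries. The 6 skeletal muscle markers had a median sum of 130999 CPM in Myriocin libraries and 117125 CPM in DMSO libraries, with 4 of 6 log2 fold changes positive. Most lists of markers of other cell types had a median log2 fold change below 0. Fibroblast markers ran the same way as the members, with 4 of 5 log2 fold changes positive (median 0.19), and macrophage markers were split, with 2 of 4 positive (median 0.04). Log2 fold changes were negative for 5 of 5 endothelial markers (median -0.15), which summed to 185 to 261 CPM in Myriocin libraries and 215 to 269 CPM in DMSO libraries. They were also negative for all 5 smooth muscle and pericyte markers tested (median -0.15), a list that summed to 228 to 346 CPM with Myriocin and 262 to 364 CPM with DMSO, and for 4 of 4 adipocyte markers (median -0.39). The adipocyte sum was highest in DMSO replicate 2, at 1469 CPM. Tested markers were all negative for liver (4, median -0.68), heart (3, median -0.43), Schwann cells (3, median -0.08) and neutrophils (2, median -2.38). For tendon 2 of 3 were negative (median -0.02). Liver and neutrophil markers were high in the few libraries named earlier. None of these markers passed the edgeR test, where their lowest adjusted p was 0.936, and the part of these cell types in the members' values was not tested.

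**Figure D3:**
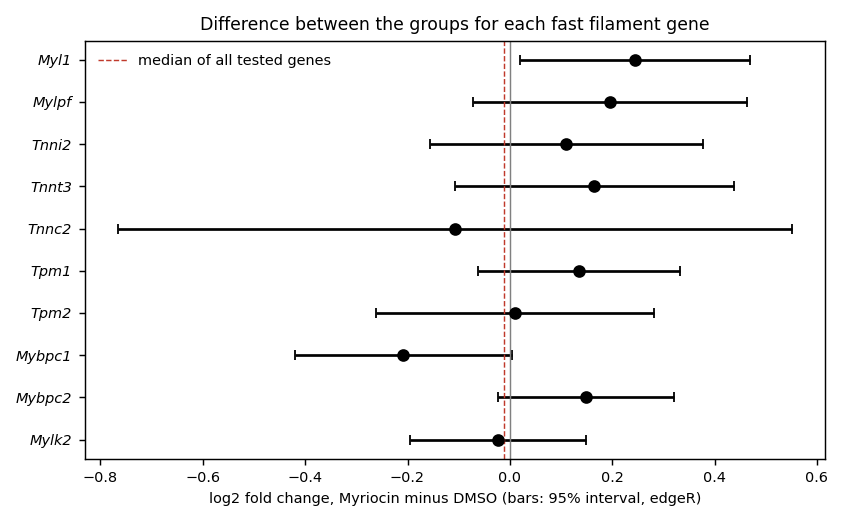
Log2 fold change of each gene, Myriocin minus DMSO, with the 95% interval from edgeR as a horizontal bar, and the median of all 14117 tested genes as a dashed line. The points run from -0.21 (Mybpc1) to 0.24 (Myl1), and the interval of Myl1 alone excludes 0.

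For the ratios of sister and partner genes, no difference between the groups passed the adjusted test. Besides Mybpc2 over Mybpc1, the ratio with the smallest exact permutation p was Mylk2 over Mylpf, kinase over substrate. Its mean log2 ratio was -2.40 ± 0.168 with Myriocin (SD, n = 6) and -2.17 ± 0.237 with DMSO (SD, n = 5), with an exact permutation p of 0.0909 and 0.5 after adjustment over 11 ratios. Myl1 over Mylpf differed by 0.05 and Tpm1 over Tpm2 by 0.11 on the log2 scale (exact permutation p 0.621 and 0.318). Fast over slow ratios varied most. The log2 ratio of Myl1 to Myl3 was 8.83 ± 2.92 with Myriocin and 8.42 ± 2.24 with DMSO, and that of Mylpf to Myl2 was 8.99 ± 1.96 with Myriocin and 8.11 ± 1.84 with DMSO. For Myl1 to Myl3, Myriocin replicate 3 stood at 14.3, with 10 Myl3 counts, against 6.35 to 9.42 in the other Myriocin libraries. Of the 11 ratios 0 passed the adjusted threshold, and for the ratios to slow genes other than Mybpc1 the exact permutation p lay between 0.461 and 0.987.

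Across the 11 libraries most of the genes varied in the same direction. Of the 45 pairs 37 had a positive Pearson r of log2 CPM, with a median r of 0.42 over all pairs, and 2 pairs passed a permutation test adjusted over the 45. Pairs share library, depth and scaling, and under scaling by library totals alone the median r was 0.26 with 1 pair passing. No pair passed by Spearman's rho, for which the lowest adjusted permutation p was 0.0577.

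The closest pair was Tnni2 and Tnnt3, 2 subunits of the same troponin complex. Over the 11 libraries r was 0.97 (permutation p 0.00017, adjusted 0.00765) and rho 0.81 (permutation p 0.00385, adjusted 0.0577). Without the 2 libraries farthest in Tnni2, r was 0.96, within Myriocin libraries it was 0.99 and within DMSO libraries 0.98. Most of the range of both genes came from 4 libraries, Myriocin replicates 4 and 6 and DMSO replicates 5 and 1. In the 7 other libraries Tnni2 ran from 6906 to 7156 CPM and Tnnt3 from 18931 to 20540.0 CPM. There r was 0.40 (exact permutation p 0.36) and rho 0.29 (exact permutation p 0.556). The 4 libraries were picked by these same values, and leaving them out narrows the range and so lowers r in advance. The 7 libraries therefore cannot test the relation. Leaving out DMSO replicate 1 alone kept r at 0.97 with an adjusted permutation p of 0.0739, and without the 3 libraries with liver transcripts r was 0.98 with an adjusted permutation p of 0.0556 over 8 libraries. Among 7286 genes ranked by r, none was closer to Tnni2 than Tnnt3 or closer to Tnnt3 than Tnni2.

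Mylpf and Tpm1 formed the other pair, with r 0.86 (permutation p 0.00091, adjusted 0.0205) and rho 0.76 (permutation p 0.00865, adjusted 0.0778). Without the 2 libraries farthest in Mylpf, Myriocin replicate 4 and DMSO replicate 1, r was 0.67. Within Myriocin libraries r was 0.74 and within DMSO libraries 0.87. Among 7286 genes ranked by r, 8 were closer to Mylpf than Tpm1 was, and 17 were closer to Tpm1 than Mylpf was. For Myl1, 29 genes were closer than Tpm1, its closest member. The adjusted permutation p was above the threshold, at 0.0519, 0.0739 and 0.0742, when Myriocin replicate 4, DMSO replicate 1 or DMSO replicate 3 was left out. It was 0.0556 without the 3 libraries with liver transcripts (r 0.86) and 0.0565 under scaling by library totals (r 0.82). Myl1 joined this pair at r 0.78 with Tpm1 and 0.75 with Mylpf (adjusted permutation p 0.0637 and 0.0768), and both passed without DMSO replicate 2, at r 0.84 and 0.91. DMSO replicates 1 to 3 were the lowest libraries for Myl1 and Tpm1, whereas for Mylpf DMSO replicate 2 lay above DMSO replicate 4 and Myriocin replicate 2.

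**Figure D4:**
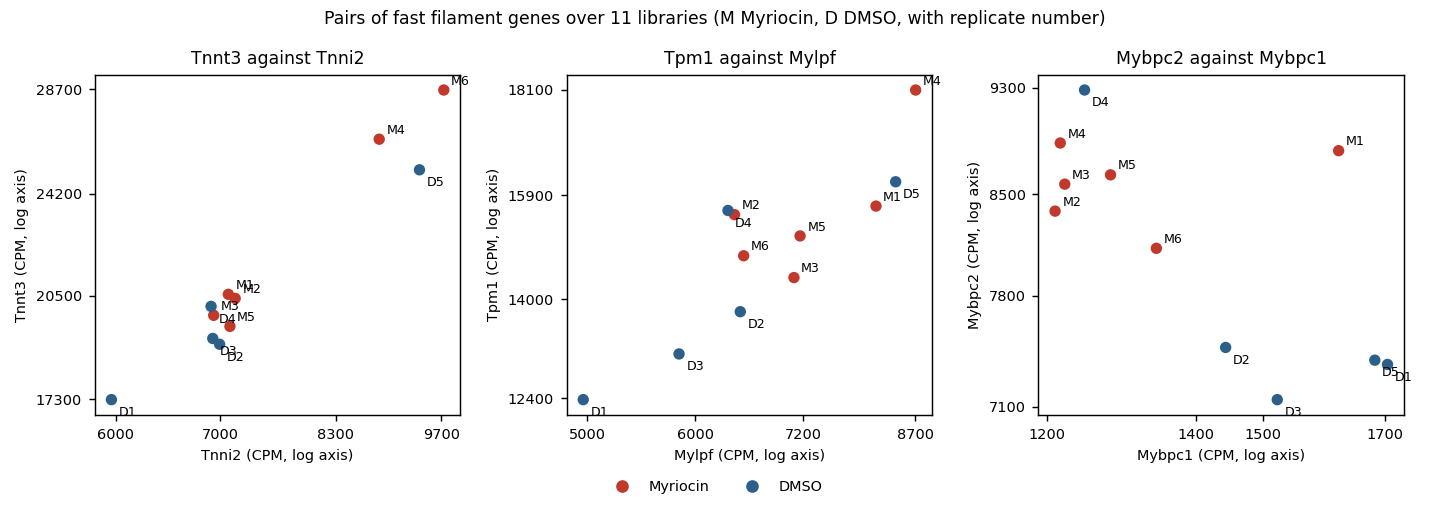
Level of one gene against another in CPM on log axes, 1 point per library, labelled M (Myriocin) or D (DMSO) with the replicate number. In the left panel 7 libraries sit together and Myriocin 4, Myriocin 6, DMSO 5 and DMSO 1 spread the line. In the right panel Mybpc2 and Mybpc1 have r -0.83 among the DMSO libraries and 0.20 among the Myriocin libraries. DMSO 4 stands apart from the other DMSO libraries, with high Mybpc2 and low Mybpc1. Myriocin 1 stands apart from the other Myriocin libraries in Mybpc1.

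All 8 pairs with a negative r held Mybpc1, but none of them passed the adjusted test and several were near 0, such as -0.11 with Tnni2 and -0.10 with Tnnc2. With Myl1 r was -0.21 over all libraries and 0.21 as deviations from the group means. Its single positive value over the 11 libraries was 0.42 with Tpm2. With Mybpc2 r was -0.68 (permutation p 0.0271, adjusted 0.153) and rho -0.60 (permutation p 0.0562, adjusted 0.169). Without DMSO replicates 1 and 5 that r was -0.49, and within DMSO libraries it was -0.83 but within Myriocin libraries 0.20. The value within DMSO rests largely on DMSO replicate 4, with 9284 CPM of Mybpc2 and 1248 CPM of Mybpc1. The other DMSO libraries had 7142 to 7465 CPM of Mybpc2 and 1443 to 1705 CPM of Mybpc1. Leaving out DMSO replicate 4 gave r -0.64 over the libraries of both groups (adjusted permutation p 0.190). Without Myriocin replicate 1, the flat exception in the right panel of the pair plot, r was -0.87 with an adjusted p of 0.0267.

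The members differed in how they varied with the heavy chains, given here as r over 11 libraries without a test. Mybpc2 had r 0.82 with Myh4, the heavy chain of the fastest fibres, and -0.33 with Myh1, that of the next fastest type. For Mybpc1 the order was the other way round, with r -0.62 for Myh4 and 0.77 for Myh1. Tpm2 also followed Myh1 (r 0.65) rather than Myh4 (0.08), and Myl1 followed Myh4 (0.61). Tnni2 and Tnnt3 had r of 0.04 and 0.20 with Myh4. Mylk2 stood out by r -0.70 with Myh7, the slow heavy chain, and by values from -0.64 to -0.41 with the 6 slow sister genes, which share their own high and low libraries. As deviations from the group means, Mybpc2 and Myh4 had r 0.68, Mybpc1 and Myh1 0.79 and Mylk2 and Myh7 -0.69, whereas Myl1 and Myh4 had 0.28.

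**Figure D5:**
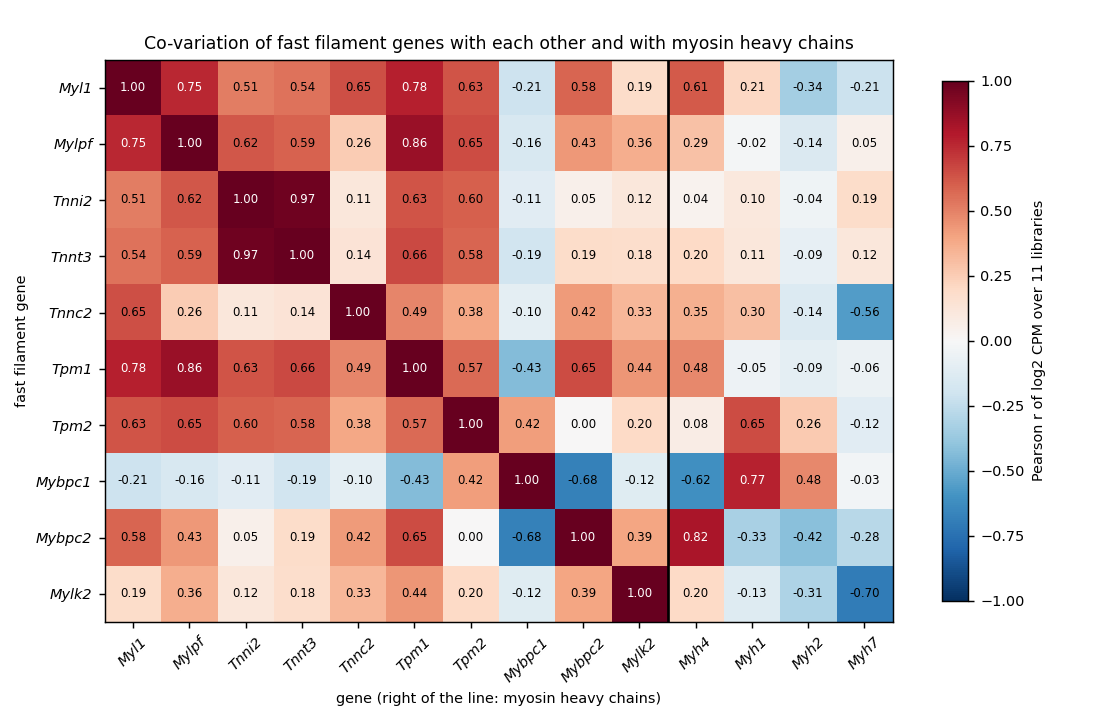
Pearson r of log2 CPM over the 11 libraries between the 10 genes, and to the right of the line with 4 myosin heavy chains, coloured from -1 to 1. Most cells between members are positive, the Mybpc1 row is mostly negative, and the highest value off the diagonal is 0.97 for Tnni2 and Tnnt3.

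Genes outside the list that varied most like it were found by r between their log2 CPM and the mean standardised log2 CPM of the members, among 7147 genes of at least 10 CPM, whose median r was -0.01. The highest were Enho, a peptide hormone precursor (r 0.94), Casq1, the calcium store protein of fast muscle (0.92), Acta1, the skeletal muscle actin of the thin filament (0.91), Hacd1, an enzyme of very long fatty acid synthesis (0.91), and Rasa4, a Ras GTPase-activating protein (0.89). At the other end stood, among others, Jak3, a cytokine receptor kinase (-0.87), Abhd5, a coactivator of triglyceride lipase (-0.86), Chd6, a chromatin remodeller (-0.85), and Ptch1, the Hedgehog receptor (-0.84). The genes named are the ends of a ranking over 11 libraries, where high r can arise by chance, and their r was not tested. The members' mean includes Tnnc2. Without it, r was 0.89 to 0.94 at the high end and -0.88 to -0.85 at the low end. None of these genes passed the edgeR test between the groups, where the lowest adjusted p among them was 0.936. The mean standardised level was highest in DMSO replicate 5 (0.97), Myriocin replicate 4 (0.80) and Myriocin replicate 1 (0.62), and lowest in DMSO replicates 1, 2 and 3 (-0.87, -0.77 and -0.70).

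Of the other genes of the same structures 0 were called, and their differences ranged more widely than those of the members, from -0.56 to 0.44 among the heavy chains and from -0.35 to 0.80 among the other filament genes, on the log2 scale. Among 6 myosin heavy chains the log2 fold change was positive for 4 and negative for 2, and its median was 0.11. Myh4 averaged 71119 ± 3148 CPM with Myriocin and 61846 ± 5804 CPM with DMSO (log2 fold change 0.20), and Myh2, the heavy chain of oxidative fast fibres, averaged 1161 ± 545 CPM with Myriocin and 1712 ± 397 CPM with DMSO (-0.56). Among 25 other thin and thick filament genes 15 were positive and 10 negative, with a median of 0.05. Titin, Ttn, averaged 10829 ± 1203 CPM with Myriocin and 9026 ± 850 CPM with DMSO (0.26), and Actn2, the alpha-actinin of all fibre types, averaged 898 ± 139 CPM with Myriocin and 1142 ± 216 CPM with DMSO (-0.35). The slow fibre list had 2 positive and 6 negative values, with a median of -0.11. The lowest edgeR adjusted p was 0.936 among the heavy chains and the other filament genes, where it belonged to Myh4, Myh2, Ttn and Actn2 among others, and 0.960 in the slow fibre list.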

How the data were processed

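Quadriceps RNA of 6 Myriocin and 5 DMSO libraries was prepared by Direct-zol and read on DNBseq, per the labels' protocols. The authors deposited raw read counts per Ensembl gene, with GRCm38 as the build and STAR 2.5.2b and HTSeq 0.6.0 as tools, per the submitters' processing notes. Not given in the sources used here are the strand setting, annotation release, read filters, myriocin dose and any batch. Of 53470 lines, 5 were summary lines holding 24.8% to 28.2% of a library's reads. They entered neither library sizes nor tests. Of 53465 genes, 53360 matched GENCODE M21, which gave symbols, coordinates and exon lengths, and 24179 had 0 counts throughout. Columns were assigned by name, with 0 left over. No library was a copy of another in its group (chi-square per degree of freedom 8.91 to 48.9).

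The test over all genes used edgeR 4.0.16 under R 4.3.3, with filterByExpr (minimum count 10, minimum total 15), TMM scaling, the robust quasi-likelihood F test with treatment as the single factor, and Benjamini-Hochberg adjustment over 14117 genes at a threshold of 0.05. The standard error was calculated back from the F statistic. CPM are TMM-scaled, and CPM per kb divide by the union of annotated exons. Correlations used log2 CPM with a prior count of 2 and permutation tests of 100000 resamples. The 11 within-library count ratios used 2-sided exact permutation tests. The fit was tested on simulated data. Members, gene lists and tests were chosen with earlier results of these data known. The text names all 10 members, their 6 slow sisters, the 5 genes most and 5 least like the members' mean (at least 10 CPM, no predicted gene or pseudogene), and the 2 genes of smallest p in other lists. Of these genes 1 is not reported here. Ube2c and the libraries singled out were chosen after their values were seen. Alternatives were DESeq2 1.42.0 and its size factors, limma-voom (limma 3.58.1), upper-quartile scaling, library totals, no filter, fewer abundant genes, a replicate block, and leaving out libraries.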

Additional observations from a re-analysis of the deposited data

Results flagged for a closer look

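Among 44 groups of values (each gene, each ratio and the members' mean level, in each treatment group), 3 held a library far from the others of its group. Chance flags about 1 in 20 such groups. Tpm1 stood at 18094 CPM in Myriocin replicate 4, against 14378 to 15695 CPM in the other Myriocin libraries. This library was also one of the 3 with liver transcripts. Mybpc1 stood at 1621 CPM in Myriocin replicate 1, against 1210.4 to 1344 CPM in the other Myriocin libraries. Mybpc2 stood at 9284 CPM in DMSO replicate 4, against 7142 to 7465 CPM in the other DMSO libraries.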

How the results depend on the processing

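Over 21 settings 0 members were called, and the lowest adjusted p of a member was 0.484 (Myl1). DESeq2 called 6 genes in all, against 0 with edgeR, and the cause was not tested. The members' median log2 fold change lay between 0.06 and 0.17 when 1 library was left out. Scaling by library totals put 35.3% of all genes above 0 and their median at -0.05. Few correlated pairs passed, and their number, 2 in the report, was 1 under library totals, 0 without the 3 libraries with liver transcripts and 0 to 8 when 1 library was left out. Leaving out DMSO replicate 1 gave 0 pairs, DMSO replicate 2 gave 4 and DMSO replicate 3 gave 1, while Myriocin replicate 4 gave 1 and Myriocin replicate 6 gave 8. Those fits hold fewer libraries.

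Signs turned only for values near 0 or widely spread. Leaving out 1 library gave log2 fold changes from -0.31 to 0.17 for Tnnc2, -0.052 to 0.15 for Tpm2 and -0.066 to 0.019 for Mylk2. Tnnc2 was at 0.020 with limma-voom and 0.50 without the liver libraries, Mylk2 at 0.040 without them, and Tpm2 at -0.023 under library totals. Differences of log2 ratios ran from -0.69 to 1.01 for Myl1/Myl3, -0.48 to 0.63 for Tnni2/Tnni1, -0.26 to 0.78 for Tnnt3/Tnnt1, -0.90 to 0.73 for Tnnc2/Tnnc1, -0.011 to 0.50 for Tpm1/Tpm3 and -0.028 to 0.10 for Myl1/Mylpf. Without the liver libraries the differences were larger for most ratios of fast to slow genes, at 2.17 for Myl1/Myl3 (0.41 with all libraries), 2.30 for Mylpf/Myl2 (0.88), 1.28 for Tnnt3/Tnnt1 (0.25), 0.78 for Tpm1/Tpm3 (0.25) and 0.53 for Tnni2/Tnni1, and Tnnc2/Tnnc1 was at 1.59, with 0 of the 11 ratios past the adjusted threshold. DMSO replicates 4 and 5, left out, had the highest DMSO log2 ratios for Myl1/Myl3 (10.81 and 10.10) and Mylpf/Myl2 (10.73 and 8.96). Myriocin replicate 4, also left out, was below the Myriocin mean for both (6.83 and 7.70). The larger differences cannot be told apart from the choice of these libraries. The cause of the turned signs was not tested.

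Same-numbered libraries did not deviate together (r from -0.13 to 0.09), so the numbers are not taken as pairing. With the replicate block 0 genes, 0 members and 0 ratios passed, 509 genes against 660 had an unadjusted p under 0.05, the members' median was 0.07, and Tnnc2/Tnnc1 turned to 0.18. Depth limits Tnnc2, with 11 to 42 reads a library.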
